A study of Bos taurus with 252 samples.

Results

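The genes described here encode proteins of the lysosome, the acidic compartment in which cells degrade proteins, lipids and sugars. They were chosen by name and by role, not by their values: 36 genes in 6 roles, namely 6 membrane proteins (LAMP1, LAMP2, CD63, SCARB2, NPC1, MCOLN1), 9 proteases (CTSA, CTSB, CTSC, CTSD, CTSH, CTSL, CTSS, CTSZ, TPP1), 8 glycosidases and sulfatases (GAA, GLA, GLB1, HEXA, NEU1, IDS, ARSA, ARSB), 6 lipid hydrolases, lipid carriers and progranulin (ASAH1, SMPD1, LIPA, NPC2, PSAP, GRN), 5 subunits of the proton pump (ATP6V0D1, ATP6V1A, ATP6V1B2, ATP6V1H, ATP6AP1) and 2 transcription factors (TFEB, TFE3). All 36 were among the 33282 genes of the count table, and 35 were among the 19056 genes that had enough counts to be tested. The gene left out was CTSL, a cysteine protease of the lysosome, which had a count in 6 of 252 libraries and at most 10 counts in any of them.

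Macrolide antibiotics such as tildipirosin and tulathromycin are weak bases that are trapped in acidic compartments, and phagocytes of the blood take them up in this way. Lysosomal enzymes reach their compartment tagged with mannose 6-phosphate, the proton pump (V-ATPase) keeps it acidic, and the membrane is covered by heavily glycosylated proteins such as LAMP1 and LAMP2. TFEB and TFE3 are transcription factors that can enter the nucleus under lysosomal stress or starvation and raise the transcription of many lysosomal genes, and much of their control lies in phosphorylation and location, which RNA levels do not show. Among blood cells, monocytes and neutrophils are known for their many lysosomes and granules, rich in cathepsins and other hydrolases.

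The data came from 42 crossbred steers, 6 in each of 7 groups, whose whole blood was drawn into PAXgene tubes on days 0, 3 and 7 and again on days 14, 21 and 56, giving 252 stranded mRNA libraries. The negative control steers (NC) received no antimicrobial, and the other groups received a single subcutaneous dose of a macrolide, either tildipirosin (TILD) or tulathromycin (TULA), or of another antimicrobial, namely oxytetracycline (OXYT), florfenicol (FLOR), enrofloxacin (ENRO) or ceftiofur (CEFT), after the blood draw of day 0, each at its own label dose per body weight, so that TILD and TULA doses differed. Each library was 1 steer on 1 day, so n counts steers. According to the study's methods all steers, NC included, had received tildipirosin, vaccines, an implant and dewormers before arrival, each group was kept in a pen of its own, and groups were handled in a fixed order at the later samplings. Pen, handling order and treatment therefore cannot be told apart.

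Library totals lay between 26.1 and 74.1 M counts (M, 1000000 counts), with a median of 33.6 M in TILD, 45.9 M in TULA and 43.6 M in NC. The share of hemoglobin transcripts was between 0.00405% and 25.5%. NC and ENRO were run on lane 1, TULA on lane 2, and CEFT and OXYT on lane 3, while FLOR was divided between lanes 1 (2 steers) and 2 (4 steers) and TILD between lanes 2 (4 steers) and 3 (2 steers). No TILD or TULA steer thus shared a lane with NC, and within a comparison of these groups on 1 day lane and treatment cannot be told apart. Defining markers of blood cells were present, while MYH1, KRT5 and KRT14 of muscle and skin had a summed median of 0.109 CPM (counts per 1000000 counts of the library) on day 0 and reached 188 CPM in 1 library of day 14. In whole blood, fewer cells of a type and less RNA per cell cannot be told apart.

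The lysosomal genes were among the steadier genes of these libraries. The SD of their log2 CPM over the 252 libraries had a median of 0.30, against 0.50 for all genes tested. For 33 of the 35 tested genes the SD lay between 0.18 and 0.41, and the highest library exceeded the lowest by between 2.208-fold and 5.45-fold. Of the variance of a gene, the median share between steers was 45.5% (from 24.6% to 77.1%), that between days 12.6% (from 0.570% to 38.02%, with ATP6V1A highest) and that between treatments 6.74% (at most 20.7%). Each steer belonged to 1 treatment, so the share between steers includes that between treatments. The shares were not corrected for the number of steers, days or treatments.

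PSAP and MCOLN1 were the exceptions. MCOLN1, the calcium channel of the lysosomal membrane, ranged from 0.795 to 17.8 CPM, an SD of 0.86 on the log2 scale, and the median ratio of the highest to the lowest day of a steer was 4.13. PSAP, the precursor of the saposins that assist the breakdown of sphingolipids, ranged from 0.312 to 532 CPM, a 1706-fold range and an SD of 2.11 on the log2 scale, which was above that of 98.3% of the genes tested. GRN, whose product progranulin binds prosaposin and travels with it to the lysosome, ranged only from 205 to 811 CPM in the same libraries.

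The PSAP values jumped within steers. In 22 of 42 steers the highest day exceeded the lowest by more than 10-fold, 23 libraries exceeded 100 CPM and 85 were under 5 CPM. In NC7, a steer named here after its values were seen, PSAP stood at 12.8, 532, 3.49, 10.3, 4.60 and 45.5 CPM from the first sampling to the last, with the peak on day 3. In Enro8, chosen in the same way, it was 2.80, 244, 1.85, 2.09, 2.31 and 1.78 CPM at the same samplings. A single library stood far above the others of the same steer in both, and NC7 was untreated. Which assembled transcripts were counted as PSAP in each library was not analysed here, and every PSAP value rests on that step. By group, the median over 36 libraries was 10.1 CPM in NC, 14.1 in TILD and 5.92 in TULA, and among the other drugs 57.3 (CEFT), 4.86 (ENRO), 10.4 (FLOR) and 3.89 CPM (OXYT). All groups overlapped.

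**Figure D1:**
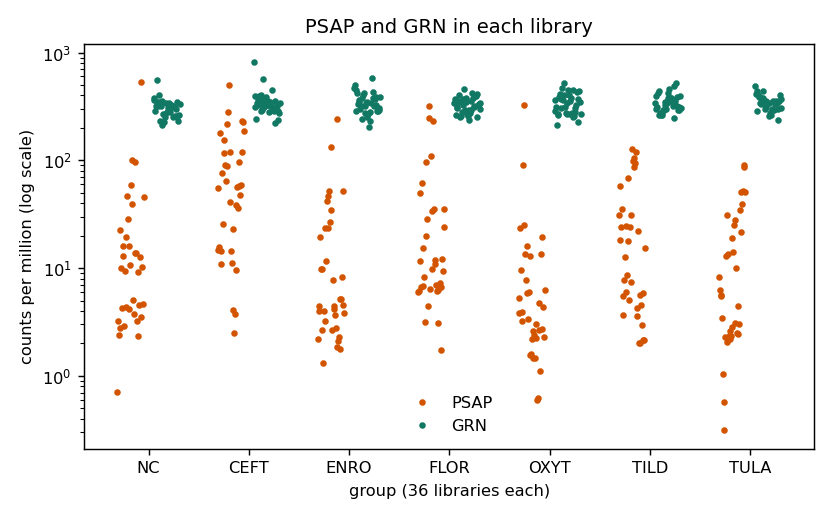
CPM (log axis) of PSAP (orange) and GRN (green) in each of the 252 libraries, by group, with 36 libraries a group and 1 point per library. PSAP spread from 0.312 to 532 CPM, while GRN stayed between 205 and 811 CPM in every group.

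The first question was whether the lysosomal genes of steers given a macrolide differed from those of NC steers on the same day. In TILD 1 gene, the protease CTSH, was higher than in NC on day 3, and 1 gene, the protease CTSA, was higher on day 21. No lysosomal gene passed on days 0, 7, 14 or 56, and none was lower than in NC on any day. In TULA no lysosomal gene passed on any day. DESeq2, run as an alternative, called 5 lysosomal genes in TILD and 1 in TULA on at least 1 of days 3 to 56. The share of all genes called by DESeq2 is not given here. The main test was edgeR's quasi-likelihood test with a Benjamini-Hochberg FDR of 0.1 over all genes tested, on 6 against 6 steers a day.

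These counts stand beside a background that was small in itself. Of the 19056 genes tested in TILD against NC, 0.0787% passed before the drug (day 0), 3.14% on day 3 and 0.268%, 0.462%, 0.499% and 0.205% at the later samplings of days 7, 14, 21 and 56. In TULA 0.00525% passed before the drug, 0.0105% on day 3 and 0%, 0%, 0.0105% and 0% at the later samplings. A count of 1 in 35 on day 3 is near the share of all genes, and the single call of day 21 stands beside a share of 0.499%.

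Without the correction for multiple tests, 2, 8, 4, 5, 6 and 2 of the 35 lysosomal genes had a p under 0.05 in TILD from day 0 to day 56 in order. Over all genes the share at that level was 7.23%, 17.6%, 10.2%, 14.6%, 20.7% and 6.31% on the same days. In TULA the numbers were 3, 1, 1, 2, 4 and 1 of 35, where all genes gave 5.54%, 8.87%, 4.68%, 9.69%, 14.5% and 8.60%.

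The median log2 fold change of the 35 genes in TILD over NC was 0.16 on day 0, before the drug, and then 0.09, 0.08, 0.04, 0.11 and 0.02 from day 3 to day 56. Over all genes the median was between -0.03 and 0.00. In TULA the lysosomal medians were 0.08, 0.01, 0.07, 0.10, 0.01 and 0.05. Between 21 and 25 of the 35 genes lay above NC in TILD and between 18 and 27 in TULA, day 0 included. The small offset over NC was thus present in both groups before the dose of day 0, and in TILD no later day exceeded it. The other treatments lay above NC on day 0 as well, with medians from 0.05 (FLOR) to 0.16 (CEFT).

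**Figure D2:**
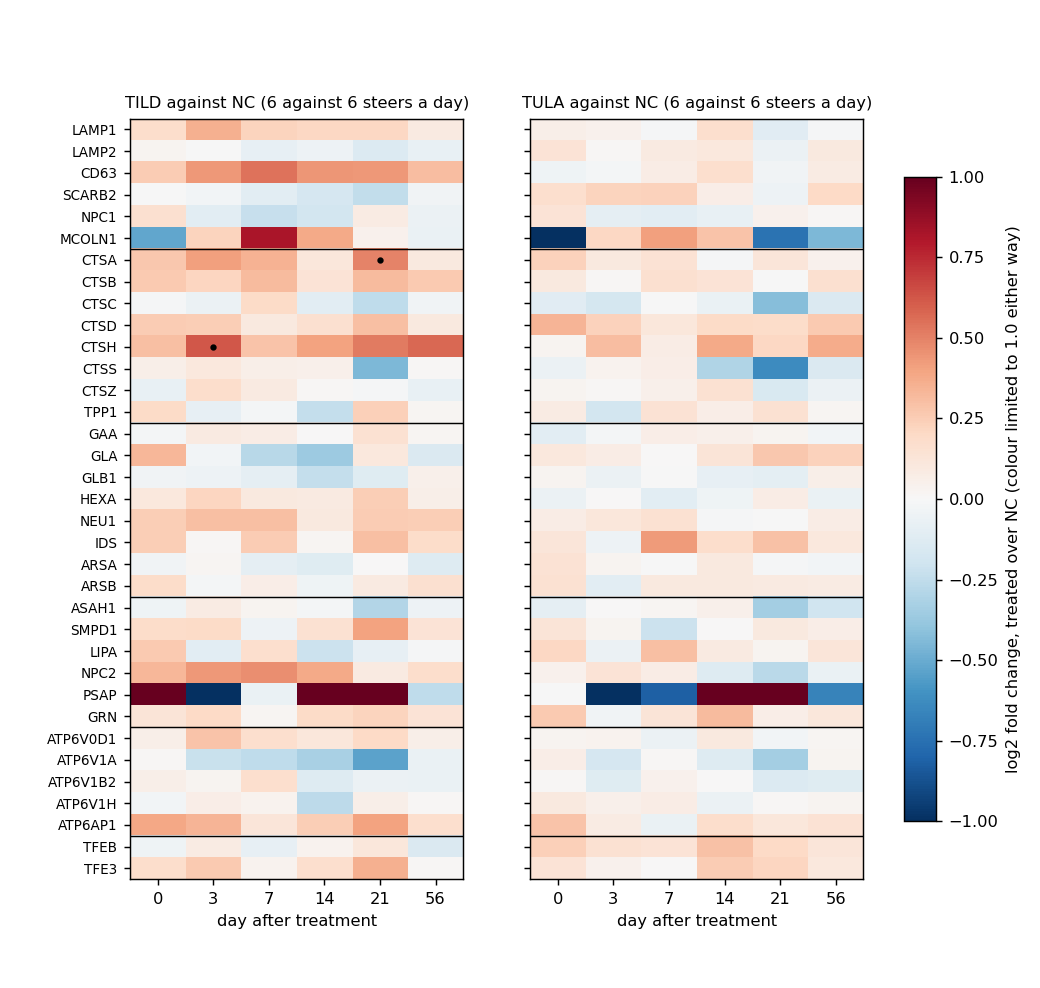
Log2 fold change of each of 35 lysosomal genes in TILD (left) and TULA (right) over NC on each day, 6 against 6 steers, with red for higher and blue for lower than NC, colour limited to 1 either way, and lines between the 6 roles. Dots mark an FDR under 0.1, which CTSH on day 3 and CTSA on day 21 reached in TILD and no gene reached in TULA.

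CTSH, cathepsin H, is an aminopeptidase of the lysosome. On day 3 its lowest, median and highest levels were 316, 334 and 486 CPM in the 6 TILD steers and 178, 237 and 295 CPM in the 6 NC steers. Every TILD steer was above every NC steer. The means were 362 ± 63.9 and 235 ± 37.8 CPM (SD, n = 6), a log2 fold change of 0.62 (SE 0.13, FDR 0.055).

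CTSH was already higher in TILD on average before the drug. On day 0 the levels were 277, 299 and 430 CPM in TILD and 223, 258 and 367 CPM in NC (lowest, median and highest), with overlap and a log2 fold change of 0.30 (FDR 0.714). On days 7, 14, 21 and 56 the log2 fold change was 0.28, 0.40, 0.52 and 0.57, and none of these passed. TULA steers had log2 fold changes of CTSH over NC of 0.03, 0.31, 0.08, 0.38, 0.21 and 0.37 from day 0 to day 56, without a call. From day 7 on, the steer Tula8 stood above the other TULA steers with up to 502 CPM.

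The CTSH call on day 3 was lost with ComBat_seq by lane (FDR 0.519), with lane as a term (FDR 0.479) and when NC7, NC12, NC13, NC15 or Tild5 was left out, although the log2 fold change stayed between 0.46 and 1.06 over all alternatives. The summed level of the neutrophil markers (7 of 8 tested) moved with it on day 3, with a lowest, median and highest sum of 3102, 4003 and 4426 CPM in TILD and 2272, 2661 and 3103 CPM in NC. Of these 7 markers 1, S100A9, passed the same test in TILD. The monocyte markers (7 of 7 tested) summed to between 1481 and 4774 CPM in TILD and between 1982 and 3090 CPM in NC. The part of these cells in the CTSH result was not tested.

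CTSA, cathepsin A, is a carboxypeptidase that also protects the enzymes GLB1 and NEU1. On day 21 its lowest, median and highest levels were 205, 216 and 257 CPM in TILD and 125, 159 and 173 CPM in NC. The groups did not overlap. The means were 220 ± 18.9 and 156 ± 17.6 CPM (SD, n = 6), a log2 fold change of 0.49 (SE 0.10, FDR 0.084).

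On day 0 the log2 fold change of CTSA in TILD was 0.27, and on days 3, 7, 14 and 56 it was 0.41, 0.35, 0.12 and 0.09, all without a call. In TULA it was between -0.02 and 0.23 on the 6 days. The call was lost in 13 of 19 alternatives, namely without NC7, NC12, NC13, NC15, Tild2, Tild3, Tild7, Tild8 or Tild10, without the filter on low counts, with ComBat_seq by lane under either test and with lane as a term. On day 21 the neutrophil markers summed to 2247, 3186 and 4047 CPM in TILD and 1444, 2206 and 3512 CPM in NC (lowest, median and highest), and 0 of 7 passed. The erythroid markers summed to 2054, 12954 and 47884 CPM in TILD and 10026, 67253 and 261763 CPM in NC, with log2 fold changes of -2.55 for HBA1, -2.24 for HBB and -1.95 for ALAS2. KRT5 and KRT14 of skin had log2 fold changes of 5.31 and 4.75 (FDR 0.102 for both), where the markers of muscle and skin together reached at most 14.8 CPM in TILD and 0.258 CPM in NC. The monocyte markers summed to between 1183 and 3389 CPM in TILD and between 1185 and 2668 CPM in NC, with log2 fold changes of 0.88 for CD163 and 0.79 for VCAN, and 0 of the 6 erythroid and 0 of the 7 monocyte markers passed. The part of these cells in the CTSA result was not tested.

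The number of lysosomal genes called in TILD on at least 1 of days 3 to 56 was 2, where 3.79% of all genes were called. With NC1 left out the number was 12, and the share of all genes in that run is not given here. The number was 0 without NC7, NC12, NC13 or NC15, and 1 without Tild2, Tild3, Tild5, Tild7 or Tild10.

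**Figure D3:**
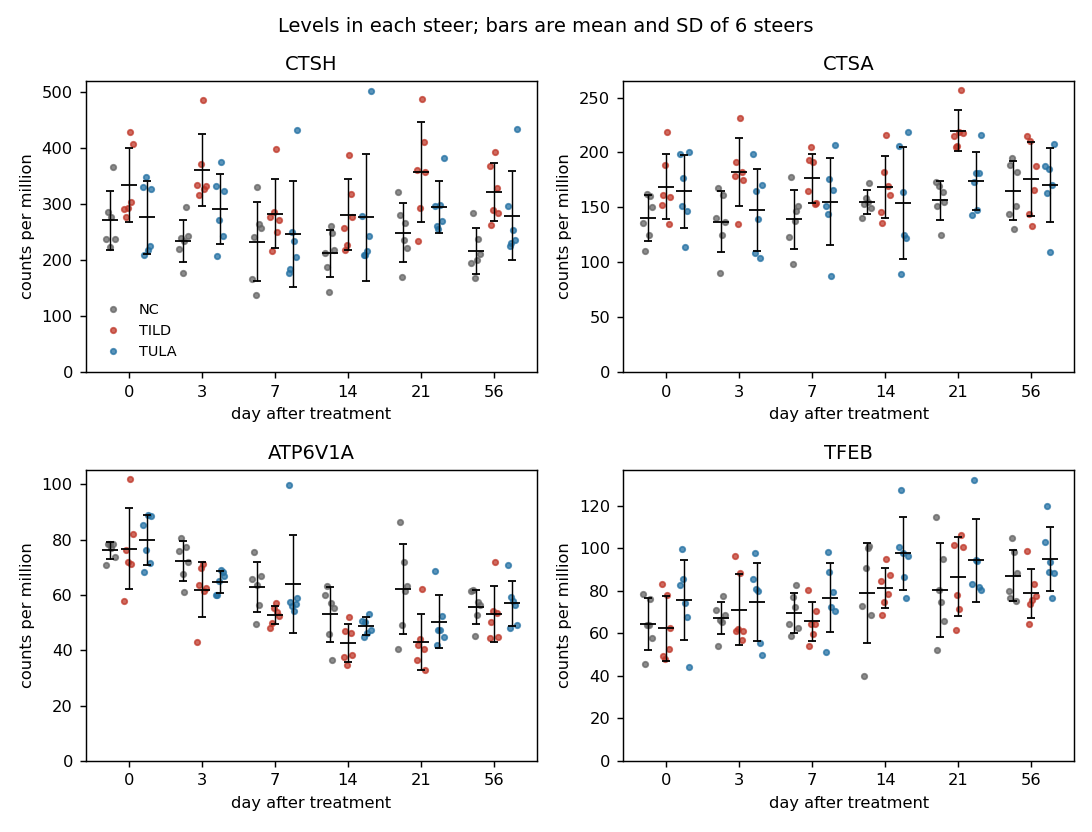
CPM of CTSH, CTSA, ATP6V1A and TFEB in each steer of NC (grey), TILD (red) and TULA (blue) on each day, with bars for the mean and SD of 6 steers. TILD lay above NC without overlap for CTSH on day 3 (316 to 486 against 178 to 295 CPM) and for CTSA on day 21 (205 to 257 against 125 to 173 CPM), while TFEB overlapped on all days.

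LAMP1, the most familiar protein of the lysosomal membrane, showed no called difference. On day 3 its levels were 428, 559 and 813 CPM in TILD, 427, 446 and 585 CPM in TULA and 316, 462 and 548 CPM in NC (lowest, median and highest). All 3 groups overlapped, and the log2 fold change over NC was 0.35 in TILD (FDR 0.311) and 0.04 in TULA (FDR 0.955). On the other days it was between 0.09 and 0.22 in TILD and between -0.12 and 0.17 in TULA, day 0 included.

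CTSD, cathepsin D, the main aspartic protease of the lysosome, also showed no called difference. On day 3 it stood at 650, 798 and 1412 CPM in TILD, 740, 845 and 1118 CPM in TULA and 560, 732 and 956 CPM in NC. The groups overlapped. The log2 fold change over NC in TILD was 0.25 on day 0 and 0.25 on day 3, and in TULA it was 0.34 on day 0 and 0.23 on day 3, so that the offset was present before the drug.

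NPC1, which exports cholesterol from the lysosome, and SMPD1, the acid sphingomyelinase, belong to the lipid handling that cationic amphiphilic drugs are known to disturb. On day 3 NPC1 was at 23.9, 26.4 and 28.5 CPM in TILD, 24.6, 26.5 and 28.9 CPM in TULA and 21.5, 28.3 and 34.8 CPM in NC. The TILD and TULA levels lay within the NC range. Its log2 fold change over NC was between -0.23 and 0.16 in TILD and between -0.10 and 0.14 in TULA on the 6 days. On day 21 SMPD1 was at 42.3, 45.1 and 51.9 CPM in TILD, 28.3, 38.96 and 44.3 CPM in TULA and 25.02, 30.4 and 61.7 CPM in NC, where the highest steer, NC1, stood apart. Its log2 fold change of that day was 0.40 in TILD (FDR 0.259) and 0.10 in TULA (FDR 0.862).

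TFEB, the transcription factor of lysosome formation, overlapped between the groups on all days. On day 3 it was at 57.1, 61.7 and 96.2 CPM in TILD, 50.01, 80.3 and 97.5 CPM in TULA and 54.2, 67.6 and 77.5 CPM in NC. The log2 fold change over NC lay between -0.14 and 0.11 in TILD and between 0.12 and 0.29 in TULA, where day 0 gave 0.24. No difference in TFEB was detectable at this depth and number of steers.

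The treatments that are not macrolides gave the measure of how particular these differences were. On day 3, CEFT had 6 lysosomal genes higher than in NC and 0 lower, where 10.9% of all genes passed. OXYT had 5 higher and 0 lower (3% of all genes), ENRO 1 higher (3.33%) and FLOR 1 lower (2.67%). On days 7, 14, 21 and 56 the 4 treatments together had 1 call, PSAP on day 14 in CEFT, where 0.31% of all genes passed. All of these comparisons, and those of TILD and TULA, share the same NC libraries.

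CTSH was called in CEFT and in OXYT as well as in TILD. On day 3 it stood at 240, 329 and 384 CPM in CEFT and 294, 393 and 477 CPM in OXYT, against 178, 237 and 295 CPM in NC, with log2 fold changes of 0.43 (FDR 0.080) and 0.71 (FDR 0.056). TFEB also passed in both, at 0.44 in CEFT (FDR 0.069) and 0.43 in OXYT (FDR 0.092), which was above its value of 0.08 in TILD and 0.15 in TULA. ATP6AP1, an accessory subunit of the proton pump, passed in CEFT (0.40, FDR 0.064), ENRO (0.39, FDR 0.097) and OXYT (0.52, FDR 0.064).

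The remaining calls of day 3 were CTSA (0.57), CTSD (0.46) and the pump subunit ATP6V0D1 (0.53) in CEFT, and LAMP1 (0.59) and SCARB2 (0.52), the receptor that carries glucocerebrosidase to the lysosome, in OXYT. In each of these the lowest steers of the treated group overlapped with the highest NC steers, although 6 of 6 treated steers were above the NC median. With lane as a term, and with ComBat_seq by lane, the quasi-likelihood test called 0 genes in CEFT and 0 in OXYT, although the log2 fold changes of the genes called on day 3 stayed positive. They were between 0.50 and 1.003 in CEFT and between 0.49 and 1.28 in OXYT with lane as a term, and between 0.24 and 0.43 and between 0.32 and 0.52 with ComBat_seq. The neutrophil markers summed to between 3400 and 5873 CPM in ENRO and between 2925 and 4777 CPM in OXYT on day 3, against 2272 to 3103 CPM in NC and 2396 to 3411 CPM in CEFT, and their part in these calls was not tested.

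PSAP accounted for the largest sizes. On day 14 it was at 23.01, 118 and 503 CPM in CEFT and 2.34, 3.99 and 16.2 CPM in NC, a log2 fold change of 4.59 (FDR 0.056) without overlap. Before the dose, on day 0, PSAP lay between 9.66 and 88.6 CPM in CEFT and between 0.716 and 59.3 CPM in NC, with overlap. On day 3 it was at 4.45, 6.46 and 9.75 CPM in FLOR and 3.25, 26.4 and 532 CPM in NC, with overlap and a log2 fold change of -4.03 (FDR 0.097) in which the NC7 library of 532 CPM takes part. The jumps of PSAP within steers described above apply to both calls.

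Over the 35 genes, the median log2 fold change over NC on day 3 was 0.29 in OXYT and 0.15 in CEFT, then 0.13 in ENRO and 0.09 in both FLOR and TILD, and 0.01 in TULA. TULA thus stood lowest of the 6 treatments, and TILD and FLOR stood next to it. Before the dose, on day 0, the medians were 0.16 in OXYT, CEFT and TILD, 0.13 in ENRO, 0.08 in TULA and 0.05 in FLOR. On day 3 CEFT, ENRO, TILD and TULA did not exceed their own median of day 0, while OXYT and FLOR did. An unadjusted p under 0.05 was reached by 18 of 35 genes in OXYT and 11 in CEFT, against 8 in TILD and 1 in TULA, while over all genes 17.8%, 25.2%, 17.6% and 8.87% did in the same order.

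**Figure D4:**
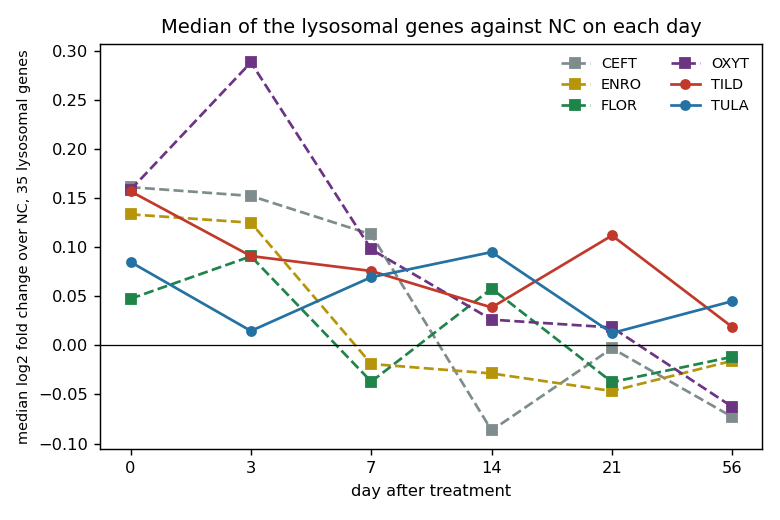
Median log2 fold change over NC of 35 lysosomal genes on each day for the 6 treatments, with solid lines for the macrolides TILD (red) and TULA (blue) and broken lines for the other drugs. On day 0, before the dose, all 6 lay above NC, from 0.05 (FLOR) to 0.16 (CEFT). On day 3 OXYT stood highest at 0.29, TULA lowest at 0.01, and TILD and FLOR close together at 0.09. All lines share the NC libraries.

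The comparison of changes within steers removed the offset of day 0 and any lane effect that was the same on all days of a steer. The change from day 0 in TILD, less the mean change in the 5 groups without a macrolide (NC, CEFT, ENRO, FLOR and OXYT), called 0 lysosomal genes over the 5 days together (edgeR F test, FDR 0.05), where 0.892% of all genes passed. As the mean of days 3 to 56 it called 0, as it did for all genes (0%). Taken by day it called 1 gene on at least 1 day (2.22% of all genes), namely ATP6V1A, lower on day 21 (2.2% of all genes passed on that day). Without correction, 7 lysosomal genes had a p under 0.05 over the 5 days together, 3 in the mean and 14 on day 21. Over all genes the shares were 19.9%, 10.6% and 22.4% in the same order.

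The same comparison for TULA called 0 lysosomal genes over the 5 days (0.357% of all genes), 0 in the mean (0.00525%) and 0 on any day (0.0157%). Without correction 8 had a p under 0.05 over the 5 days together and 2 in the mean, where 12.6% and 3.63% of all genes did. The fit by limma voom with a random block for the steer also called 0 over the 5 days together in both TILD and TULA. Against NC alone, 0 lysosomal genes passed in TILD or TULA, over the 5 days, in the mean or on any day, where 0.42% and 0.042% of all genes passed over the 5 days. An unadjusted p below 0.05 over the 5 days was found for 9 and 3 lysosomal genes, against 14.9% and 11.2% of all genes.

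ATP6V1A, the catalytic subunit of the proton pump, fell in all groups after day 0, and on day 21 it had fallen further in TILD. Its level of day 21 was 32.9, 41.1 and 62.01 CPM in TILD, 41.7, 47.3 and 68.7 CPM in TULA and 40.5, 62.4 and 86.3 CPM in NC (lowest, median and highest). The groups overlapped. The change from day 0 on the log2 CPM scale was between -1.32 and -0.66 in the 6 TILD steers, with a mean of -0.85 ± 0.24 (SD, n = 6), against -0.34 ± 0.35 in NC and -0.68 ± 0.26 in TULA. The other drugs gave -0.71 ± 0.20 (CEFT), -0.43 ± 0.29 (FLOR), -0.42 ± 0.20 (OXYT) and -0.40 ± 0.16 (ENRO).

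TILD less the 5 groups gave a log2 difference of -0.38 for ATP6V1A on day 21 (SE 0.11, FDR 0.045). ATP6V1A was lower on day 21 than on day 0 in 6 of 6 TILD steers, and in 40 of the 42 steers of all groups. The call was lost in each of the 7 alternatives, with an FDR between 0.053 and 1, while the difference stayed between -0.53 and -0.35. Without a replicate block for the steer it was -0.39 (FDR 0.327). On day 0 the log2 fold change of ATP6V1A over NC was 0.01 in TILD and 0.07 in TULA.

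GLA, alpha-galactosidase A, which removes terminal galactose from glycolipids, had the largest difference in the mean of days 3 to 56 among the 33 genes other than PSAP and MCOLN1. Its mean change over days 3 to 56 was -0.97, -0.82 and -0.62 in TILD (lowest, median and highest steer), -0.62, -0.26 and -0.13 in NC, -0.75, -0.28 and 0.21 in TULA and -0.82, -0.49 and -0.11 in CEFT. All 6 TILD steers fell, and TILD met the range of NC at its edge. TILD less the 5 groups was -0.48 (SE 0.14) with an FDR of 0.403, so GLA did not pass.

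TILD and TULA were then compared with each other. The change from day 0 in TILD less that in TULA called 0 of 35 genes over the 5 days (0.105% of all genes passed). It called 0 in the mean of days 3 to 56 (0% of all genes) and 0 on any day. An unadjusted p under 0.05 was found for 1 gene over the 5 days and 1 in the mean. Of all genes 4.94% and 4.65% had such a p in the same order. For 33 genes, without PSAP and MCOLN1, the mean difference lay between -0.54 and 0.17 on the log2 scale. The 95% interval of the difference stayed within 1 log2 unit either way for 33 of these 33 genes and within 0.5 for 32.

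In the mean of days 3 to 56 the difference nearest to a call was that of GLA, -0.54 with a 95% interval from -0.91 to -0.16 and an FDR of 0.835. For PSAP the interval reached from -1.98 to 1.82 and for MCOLN1 from -1.16 to 0.77, and these intervals include a 2-fold difference. Tildipirosin is derived from tylosin and tulathromycin is an azalide, with a nitrogen in the macrolide ring, and both carry several basic amines. They were given at different doses. A difference between them in the response of the lysosomal genes was not detected, and for the 33 genes a difference above 2-fold in the mean lay outside the intervals.

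Most lysosomal genes changed with time. Over the 42 steers, 33 of the 35 genes changed from day 0 (F test over 5 days, FDR 0.05), 13 with a mean above day 0 and 20 with a mean below. Of all genes 80.4% passed this test, 41.3% higher and 39.1% lower, so a call was the rule in this cohort. The F test has no direction, and in the mean of days 3 to 56 a rise passed for 9 lysosomal genes and a fall for 20 (33.3% and 31.9% of all genes). In the account by role below, only changes of this mean that passed are called rises and falls. The genes that did not pass the F test over the 5 days were MCOLN1 and PSAP. As the steers were sampled on the same days, time since arrival, diet, handling and age cannot be told apart.

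By day, the genes higher and lower than on day 0 numbered 9 and 7 on day 3 (22% and 20.2% of all genes), 1 and 21 on day 7 (25.5% and 21.3%), 7 and 21 on day 14 (33.8% and 31.2%), 14 and 14 on day 21 (33.6% and 32.8%) and 9 and 17 on day 56 (33.5% and 31.9%). The falls were thus most one-sided on day 7. Expressed as the median log2 change of the 35 genes, the values were 0.06, -0.16, -0.15, -0.07 and -0.08 from day 3 to day 56, against 0.02 or 0.03 for all genes.

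**Figure D5:**
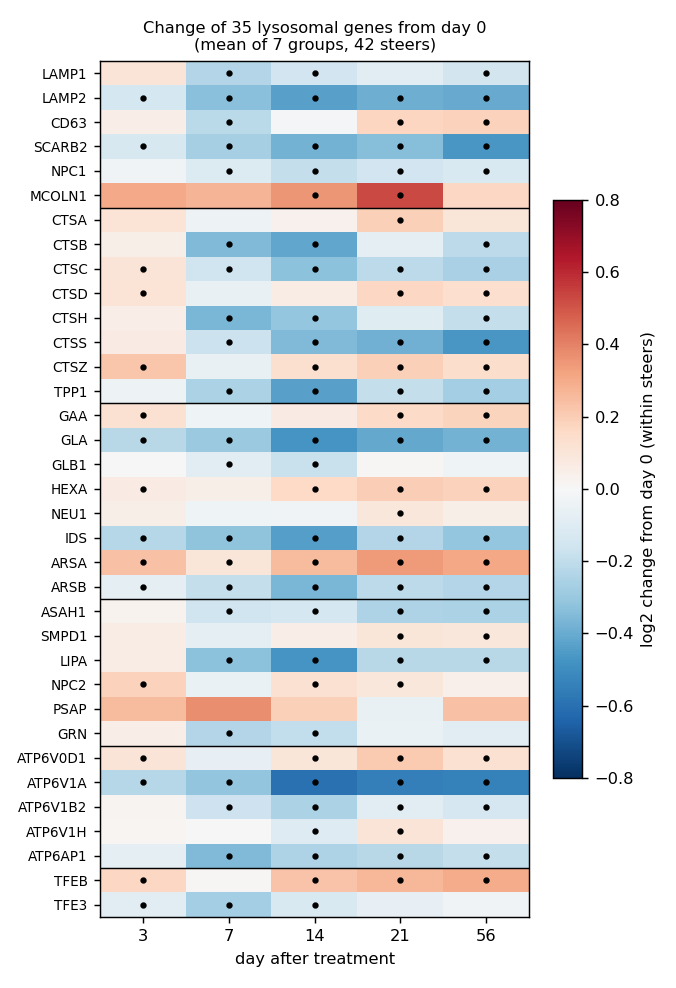
Log2 change from day 0 of each of 35 lysosomal genes on days 3 to 56, as the mean of the 7 groups over 42 steers in 1 fit with steer as a block, with red for a rise, blue for a fall and lines between the 6 roles. Dots mark an FDR under 0.05. Blue prevailed on day 7 (21 genes lower, 1 higher), and ATP6V1A was lowest on day 14 (-0.60), while ARSA, HEXA and TFEB rose.

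Among the membrane proteins 4 of 6 fell (LAMP1, LAMP2, SCARB2, NPC1) and 1 rose (MCOLN1). MCOLN1 had a mean log2 change of 0.33 but did not pass over the 5 days together, and it was higher in 23 of 42 steers. LAMP2, which serves autophagy in addition to lining the lysosome, stood at 81.3, 120 and 206 CPM on day 0, 53.8, 90.9 and 120 CPM on day 14 and 59.2, 93.4 and 115 CPM on day 56 (lowest, median and highest of 42 steers). Its mean over days 3 to 56 was below day 0 in 42 of 42 steers, with a mean log2 change of -0.34 (SE 0.02, FDR 8.48e-32). SCARB2 went from 25.6, 47.2 and 75.7 CPM on day 0 to 18.8, 37.2 and 54.98 CPM on day 14 and 18.02, 34.7 and 48.2 CPM on day 56. It was lower in 41 of 42 steers, with a mean log2 change of -0.32 (SE 0.02). CD63, a tetraspanin of late endosomes, passed over the 5 days together but not in the mean, which was above day 0 in 21 steers and below in 21. Its mean level was 86.9 CPM on day 0, 76.4 CPM on day 7, 86.4 CPM on day 14 and 98.2 CPM on day 56.

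Of the 8 tested proteases 5 fell and 2 rose. CTSS, cathepsin S, which trims the invariant chain of class II molecules in antigen presenting cells, was at 399, 561 and 1035 CPM on day 0, 289, 455 and 672 CPM on day 14 and 265, 414 and 570 CPM on day 56. It was lower in 36 of 42 steers, with a mean log2 change of -0.26 (SE 0.04). CTSB, CTSC, CTSH and TPP1, a tripeptidyl peptidase, fell by 0.20, 0.17, 0.18 and 0.24 on the same scale. CTSZ rose by 0.12, and CTSD by 0.08, while the mean of CTSA was 0.08 above day 0 (FDR 0.079) although it passed over the 5 days together.

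Of the 8 glycosidases and sulfatases 4 fell (GLA, IDS, ARSB, GLB1) and 3 rose (ARSA, HEXA, GAA), while NEU1 passed over the 5 days together but not in the mean, which was above day 0 in 24 steers and below in 18. GLA went from 8.75, 26.6 and 35.8 CPM on day 0 to 7.94, 18.9 and 32.8 CPM on day 14 and 8.53, 20.4 and 29.1 CPM on day 56, and was lower in 37 of 42 steers, with a mean log2 change of -0.36 (SE 0.05). IDS, iduronate 2-sulfatase, went from 12.4, 19.8 and 29.3 CPM to 11.4, 14.4 and 25.5 CPM on day 14 and 8.52, 16.3 and 24.1 CPM on day 56. IDS was lower in 37 of 42 steers, with a mean log2 change of -0.31 (SE 0.03). ARSA, arylsulfatase A, rose by 0.25 (SE 0.03) and was higher in 35 of 42 steers, and HEXA, the alpha subunit of hexosaminidase, rose by 0.13 (SE 0.02) and was higher in 37.

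Of the 6 genes of lipid handling 3 fell and 1 rose. LIPA, the acid lipase that frees cholesterol from its esters, fell by 0.24, ASAH1, acid ceramidase, by 0.15, and GRN by 0.10 in the mean of days 3 to 56. NPC2, the soluble cholesterol carrier, rose by 0.08, and SMPD1 passed over the 5 days together but not in the mean, which was 0.05.

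Of the 5 proton pump subunits 3 fell and 1 rose. ATP6V1A had the largest fall of all 35 genes, from 49.2, 75.8 and 102 CPM on day 0 to 29.4, 50.2 and 74.9 CPM on day 14 and 33.7, 53.1 and 72.1 CPM on day 56. It was lower in 41 of 42 steers in the mean of days 3 to 56 and in 42 of 42 on day 56, with a mean log2 change of -0.45 (SE 0.03, FDR 3.19e-33). ATP6V1B2, of the same ring of the pump, fell by 0.12 and ATP6AP1 by 0.22, while ATP6V0D1 of the membrane sector rose by 0.09 and ATP6V1H passed over the 5 days together but not in the mean, which was 0.0081, with 21 steers above day 0 and 21 below. Genes of 1 complex thus did not change alike.

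In the mean of days 3 to 56 the transcription factors went in opposite directions. TFEB rose by 0.19 (SE 0.03, higher in 36 of 42 steers), and TFE3 fell by 0.12 (SE 0.02, lower in 28 of 42 steers). TFE3 was below day 0 in 38 of 42 steers on day 7 and in 20 of 42 on day 56. The mean TFEB level was 71.4 ± 14.5 CPM on day 0 and 86.6 ± 13.3 CPM on day 56 (SD, n = 42), and the mean TFE3 level was 138 ± 21.99 and 136 ± 14.0 CPM.

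The markers of the phagocytes fell at the same time. In the mean of days 3 to 56 all 7 monocyte markers passed as lower (median of the mean log2 changes -0.49), their summed CPM ranging from 1596 to 5665 with a median of 2508 on day 0 and from 1090 to 2859 with a median of 1638 on day 14. All 7 tested neutrophil markers were lower as well (median -0.64), with summed CPM from 2077 to 6711 (median 3885) on day 0 and from 1807 to 5194 (median 2729) on day 14. In the mean 5 of 6 T cell markers were higher (median 0.36), 5 of 6 erythroid markers (median 2.02), 4 of 5 B cell markers with 1 lower, 1 of 4 platelet markers, 4 of 6 eosinophil and basophil markers with 1 lower, and 1 of 5 NK and cytotoxic markers with 3 lower. The part of these cell types in the changes of the lysosomal genes was not tested.

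In the 6 NC steers alone, which received no drug, 16 of the 35 genes changed over the 5 days (F test, FDR 0.05), where 30.5% of all genes did. By group, the median of the mean changes was -0.01 in NC, -0.04 in FLOR, -0.05 in TULA, -0.07 in TILD, -0.16 in ENRO, -0.16 in OXYT and -0.20 in CEFT on the log2 CPM scale. TILD and TULA thus lay within the range of the groups without a macrolide.

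Further genes of the lysosome and of autophagy, 106 by a list of other members of the same pathways of which 105 were tested, were described in the same fit. By the F test over time 47 had a mean above day 0 and 51 a mean below, where 41.3% and 39.1% of all genes did. In the mean of days 3 to 56 a rise passed for 34 and a fall for 43 (33.3% and 31.9% of all genes). The F test counts above and below day 0 were 14 and 12 of 30 for other hydrolases and their cofactors, 9 and 9 of 19 for other membrane proteins, 6 and 5 of 11 for other pump subunits, 10 and 5 of 15 for delivery to the lysosome, 3 and 12 of 15 for nutrient sensing and the control of TFEB, and 5 and 8 of 15 for autophagy.

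The 10 with the smallest p in the time test were IDUA, SORT1, ABCA2, ACP5, OSTM1, SLC11A1, AP1S1, FNIP1, GNPTAB and FNIP2. The hydrolases IDUA (mean log2 change 0.58) and ACP5 (0.57), the lipid transporter ABCA2 (0.60) and the adaptor subunit AP1S1 (0.30) rose. SORT1 (-0.74), a receptor that carries hydrolases and prosaposin, GNPTAB (-0.33), which makes the mannose 6-phosphate tag, OSTM1 (-0.59), the partner of the chloride transporter CLCN7, and SLC11A1 (-0.64), the metal transporter of phagocytes, fell. FNIP1 (-0.60) and FNIP2 (-0.65), folliculin partners in the control of TFE3 and TFEB, fell as well.

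In TILD against NC these further genes gave 1 call on day 0, MAN2B1 (log2 fold change 1.58, FDR 0.023), where 0.0787% of all genes passed. On day 3 there were 5 higher and 0 lower, where 3.14% of all genes passed. These were SLC11A1 (0.87), PPT2 (0.63), CLN3 (0.38), LAMTOR1 (0.32) and AP1S1 (0.29), with FDRs between 0.050 and 0.090. There were 0 on the later days. In TULA there were 0 on every day. On day 3, CEFT had 20 higher, OXYT 10, ENRO 9 and FLOR 3, with 0 lower in each, where 10.9%, 3%, 3.33% and 2.67% of all genes passed in either direction. Within steers, 1 of the 105, MANBA, a beta-mannosidase, was lower in TILD less the 5 groups on day 21 (-0.36, FDR 0.040). Of all genes 2.2% passed on that day. In TULA 0 of the 105 passed.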

How the data were processed

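The authors trimmed reads, aligned them with HISAT2 to ARS-UCD1.3 and assembled transcripts with StringTie, and the deposited count per gene was derived from transcript coverage with prepDE.py3, in whole numbers without normalization (submitters' processing notes: FastQC 0.11.9, Trimmomatic 0.39, HISAT2 2.1.1, StringTie 2.2.0, edgeR 3.36.0). A count is thus an estimate of reads. The table gives gene symbols without coordinates or sequences, and 4874 of 33282 genes had no count.

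A gene was tested if at least 12 libraries had over 0.2 CPM of it, with TMM scaling (factors 0.703 to 1.17). Treatments were compared with NC by day with edgeR's quasi-likelihood test (FDR 0.1). Changes from day 0 were tested in 1 fit with steer as a fixed block (FDR 0.05). FDRs are Benjamini-Hochberg adjusted over all genes tested, and intervals are at 95%. Log2 CPM used a prior count of 2. A steer's libraries are paired, coming from 1 animal: their residuals had a median correlation of 0.342, against -0.0694 for other steers of the group, and 42 of 42 steers were over 0.1. Steers of different groups are not paired. Alternatives used RLE scaling, no filter, DESeq2, limma voom, ComBat_seq, lane, hemoglobin and omitted steers. The tests were tested on simulated data. The mixed model of the study was not run.

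Values are given for genes called in a TILD or TULA comparison, for LAMP1, CTSD, NPC1, SMPD1, ATP6V1A and TFEB, for the 6 largest changes with time and for 10 further genes by p; others were added where a count of 5 or fewer or a role needed them. The genes, lists and rules were chosen with earlier results of these data known. R 4.3.3, edgeR 4.0.16, limma 3.58.1, DESeq2 1.42.0, sva 3.50.0, Python 3.11.15, numpy 2.4.6 and pandas 2.3.3 were used.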

Additional observations from a re-analysis of the deposited data

Results flagged for a closer look

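The level of a gene in 1 steer stood apart from the other 5 steers of its group on a day, by Dixon's criterion for 6 samples, in 14 of the 144 combinations of gene, group and day that were examined for NC, TILD and TULA. For independent, normally distributed values chance gives about 1 in 20. The same steers were sampled on all days, so the 14 are not independent and cannot be set against that rate. CTSH accounted for 5 of them, with Tild5 at 486 CPM on day 3 and Tula8 at 433, 502, 382 and 434 CPM from day 7 to day 56, so that the same steer stood apart on the last 4 days. CTSA stood at 257 CPM in Tild7 on day 21, and CTSD at 1439 CPM in Tild5 on day 0, before the drug. NPC1 stood at 31.2 CPM on day 14 and 31.3 CPM on day 21 in Tula4, the steer in which TFEB reached 132 CPM on day 21. SMPD1 stood at 61.7 CPM in NC1 on day 21. ATP6V1A was low in Tild10 on day 3 (42.98 CPM) and high in Tild5 on day 56 (72.1 CPM) and in Tula3 on day 7 (99.8 CPM).

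The change of ATP6V1A from day 0 to day 21 differed between TILD and the 5 groups without a macrolide, by -0.38 on the log2 scale in a test of the difference itself (edgeR, FDR 0.045). The call was lost in all 7 alternatives (FDR 0.053 to 1), and CEFT, 1 of the 5 groups, changed by -0.71 against -0.85 in TILD on the log2 CPM scale. CTSL, which was in no comparison because of its low counts, had at most 10 counts in a library, in the library of Ceft5 of day 3, while 0 NC libraries and 2 libraries of TILD and TULA had any count, so its level cannot be compared.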

How the results depend on the processing

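Of the counts of called genes and other results that answer a comparison, 60 values under an alternative stayed within 1.5 times the value reported and 40 did not. The number of lysosomal genes called against NC on at least 1 of days 3 to 56 was 2 in TILD, 0 in TULA, 7 in CEFT, 5 in OXYT and 1 in each of ENRO and FLOR. Of all genes 3.79% (TILD), 0.021% (TULA), 11.1% (CEFT), 3.03% (OXYT), 3.34% (ENRO) and 2.68% (FLOR) were called. The shares of all genes under the alternatives are not given here. With DESeq2 the number of lysosomal genes was 5, 1, 14, 13, 5 and 3 in that order. With ComBat_seq by lane it was 0 in CEFT, FLOR, OXYT and TILD, with ComBat_seq and the likelihood ratio test 1 in CEFT, 0 in ENRO, 1 in OXYT and 0 in TILD, and with lane as a term 0 in CEFT, FLOR, OXYT and TILD. Without the filter on low counts it was 0 in ENRO, 0 in FLOR and 1 in TILD, and ENRO also had 0 with RLE scaling and without hemoglobin genes. Leaving out 1 steer gave TILD between 0 and 12. DESeq2 gave no adjusted p for PSAP in FLOR. The causes were not tested.

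The change with time was called for between 16 (NC steers only, fewer samples) and 34 genes. Without the replicate block for the steer, and with limma voom and a random replicate block, the within-steer comparison of TILD with the groups without a macrolide called 0 genes on any day in place of 1, and so it did without the filter, without hemoglobin genes, with NC as the reference and on lane 2 only. The block changed no other count past 1.5 times. Among single genes, 187 values kept direction and side of the threshold, 76 were no longer past it and 11, none called, changed sign. With NC as the reference, the mean difference in TILD became -0.053 for CTSD and -0.0047 for SMPD1, and in TULA -0.030 for LAMP1, -0.16 for CTSD, -0.12 for SMPD1 and -0.034 for TFEB. On lane 2 only, it became -0.071 for LAMP1 in TILD, and in TULA -0.22 for LAMP1, -0.014 for CTSD, -0.0011 for SMPD1 and -0.059 for TFEB. The median over the 35 genes moved on lane 2 to -0.07 in TILD (from 0.05) and -0.10 in TULA (from 0.04). Medians without PSAP, a setting chosen after seeing the data, differed little, and the largest shift in TILD was from 0.16 to 0.14 on day 0.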
